A study of Mus musculus with 6 samples.

Results

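The genes described here encode 10 secreted proteins that attract, expand or activate neutrophils and other myeloid cells, or that block such a signal: the chemokines *Cxcl1*, *Cxcl2*, *Cxcl3* and *Cxcl5*, the interleukin-1 genes *Il1a*, *Il1b* and *Il1rn*, and the colony-stimulating factors *Csf3*, *Csf2* and *Csf1*. They were taken by gene name from the 54167 genes of the deposited table, which held all 10. They were chosen by their TPM in these same tumors, with the differences between the genotypes known, so the differences between genotypes are given as a description, without a test of any of the 10 genes. RNA was sequenced from 6 colorectal tumors of C57BL/6J mice, 3 from *Trp53fl/fl* mice and 3 from *VP* mice. *Trp53fl/fl* mice carry *Trp53* alleles flanked by loxP sites, which stay intact without Cre, and *VP* mice carry the same alleles together with *Pvillin-Cre*. The villin promoter drives Cre in intestinal epithelial cells, so that leukocytes, fibroblasts and vessels of a *VP* tumor keep their *Trp53*. By the study's methods the mice were males of 8 weeks that were injected with the carcinogen azoxymethane (AOM) at 10 mg/kg and given water with 2.5% dextran sulfate sodium (DSS), an agent that causes colitis, in periods of 7 days, with tumors present on day 98. Both genotypes had this treatment, and no untreated colon was among the samples. The labels do not say that the tumors of a genotype came from different mice, and p-values measure the spread between these tumors.

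CXC chemokines with a glutamate-leucine-arginine motif before their first cysteines, Cxcl1, Cxcl2, Cxcl3 and Cxcl5 among them, bind the receptor Cxcr2 and draw neutrophils out of the blood. Interleukin-1α and interleukin-1β signal through Il1r1 to the adaptor Myd88 and to NF-κB, a transcription factor that in turn switches on chemokine genes, while the antagonist encoded by *Il1rn* occupies the same receptor without a signal. *Csf3* encodes G-CSF, which drives the production of neutrophils in the marrow, *Csf2* encodes GM-CSF, which acts on granulocytes and macrophages, and *Csf1* encodes M-CSF, which keeps macrophages alive. Many of these mRNAs are short-lived, because AU-rich elements in their 3′ untranslated regions (UTRs) are bound by decay factors such as Zfp36.

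Values are TPM (transcripts relative to a fixed total per tumor, with transcript length taken into account), so that levels of different genes can be compared. They hold no read numbers, and the depth of each library is therefore unknown. At least 1 TPM was reached by 14857 to 15234 genes per tumor. Differences are on the log2(TPM + 1) scale, *VP* minus *Trp53fl/fl*, with the standard error (SE) of a fit with limma across 15117 genes that reached 1 TPM in 3 or more tumors. In that fit 25 genes, 0.165% of those tested, had a Benjamini-Hochberg adjusted p under 0.05, 12 of them higher and 13 lower in *VP* tumors. With median-of-ratios rescaling the split was 12 higher and 8 lower, and with centring on 12 epithelial markers it was 15 higher and 29 lower, while the median log2 difference of all genes, -0.07 as deposited, became 0.00 and -0.25. *Trp53* itself (ENSMUSG00000059552) was at 124.94, 99.30 and 147.45 TPM in *Trp53fl/fl* tumors and at 38.45, 32.79 and 27.83 TPM in *VP* tumors (log2 difference -1.87, SE 0.18, limma adjusted p = 0.0207), which goes with the genotype labels. The adjusted p of *Trp53* under 14 alternative settings lay between 0.00875 and 0.104, and its difference was negative in each.

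Of the 10 cytokine genes, 7 were higher in every *VP* tumor than in any *Trp53fl/fl* tumor, 3 overlapped between the genotypes and 0 were lower in every *VP* tumor. Over all genes tested, 6.03% were higher and 13.3% lower in every *VP* tumor. A log2 difference of at least 1 was reached by 5 of the 10 genes and by 1.58% of all genes tested. The median log2 difference of the 10 genes was 1.00, against -0.07 for all genes. These counts restate how the genes were chosen, and nothing is read from them. *Csf3* and *Csf2* passed the filter on low values through the *VP* tumors alone. Among the other 8 genes, 5 were higher in every *VP* tumor and 7 had a positive difference. In RNA from whole tumor tissue, more cells of a type and more RNA per cell cannot be told apart for any of these genes.

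**Figure D1:**
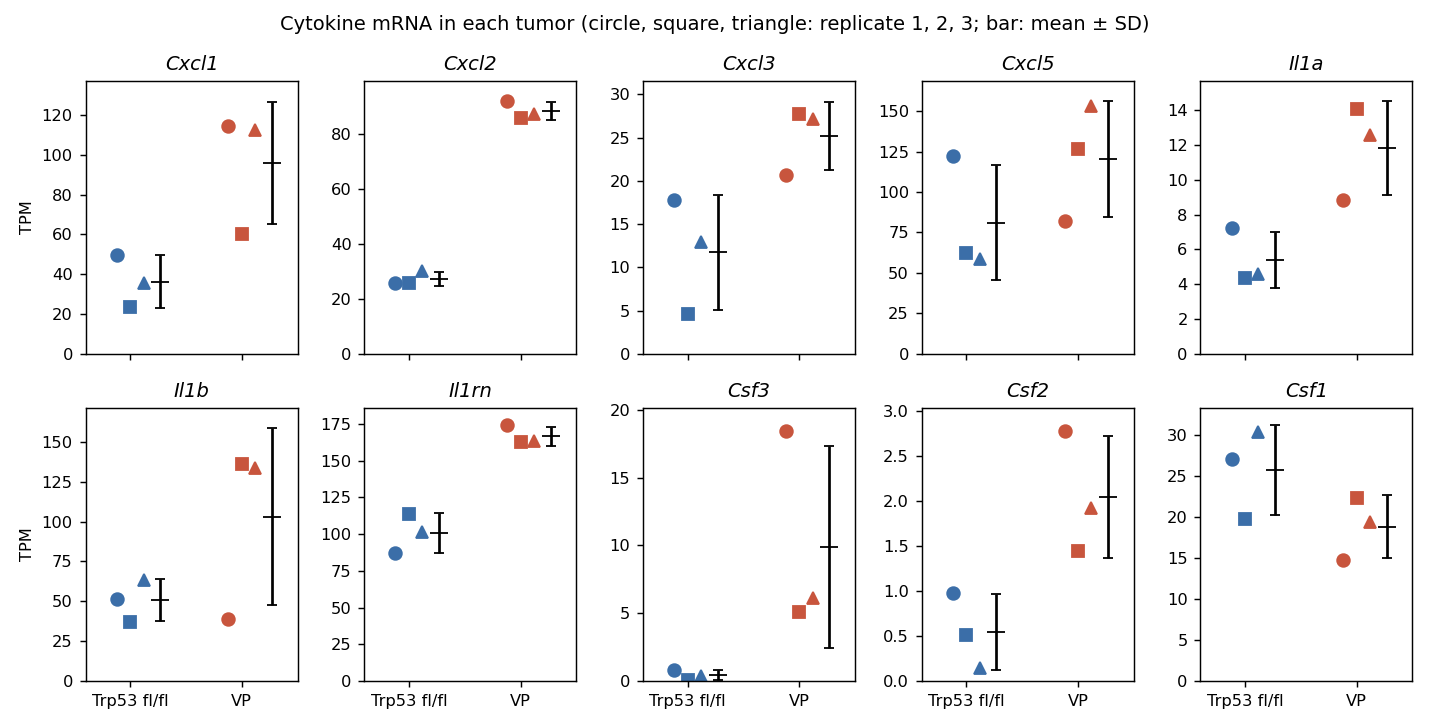
TPM of each cytokine gene (vertical axes, each from 0) in the 3 Trp53fl/fl and 3 VP tumors, with circle, square and triangle for replicates 1, 2 and 3 and the bar for the mean ± SD. Cxcl2 and Il1rn form tight, separate groups, with Cxcl2 at 25.71 to 30.23 TPM against 86.14 to 92.25 TPM, whereas Cxcl5, Il1b and Csf1 overlap between the genotypes.

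The chemokines *Cxcl1*, *Cxcl2*, *Cxcl3* and *Cxcl5* lie together on chromosome 5. In RefSeq's GRCm38.p6 annotation, 7 adjacent protein-coding genes there run in the order *Cxcl5*, *Ppbp*, *Pf4*, *Cxcl3*, *Cxcl15*, *Cxcl1* and *Cxcl2*. *Cxcl1*, *Cxcl2* and *Cxcl3* are close copies, with 89.8% identical coding positions between *Cxcl2* and *Cxcl3*, 75.6% between *Cxcl1* and *Cxcl2* and 72.6% between *Cxcl1* and *Cxcl3*, while *Cxcl5* shares 48.3% to 49.0% with each of them. Their promoters were searched for motifs and were not aligned. The following lines give the stretch of each RefSeq promoter (GRCm38.p6, 250 bases before to 50 bases after the transcription start) that holds an NF-κB-type motif, searched as GGANNTTCC on both strands, since NF-κB is the textbook regulator of these genes. The 9 bases of the match are in capitals and 12 bases are shown on each side, read in the direction of transcription. The *Csf1* match lies on the opposite strand, so its capitals are the reverse complement of the motif. *Csf1* is given beside the chemokines because it was the only other cytokine gene of the 8 in the promoter table with a match. *Cxcl5* and *Csf3* had no promoter there and were not searched.
Cxcl1 (chr5:90891163-90891195, + strand, 70 bases before the start): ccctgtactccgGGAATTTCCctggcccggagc
Cxcl2 (chr5:90903791-90903823, + strand, 96 bases before the start): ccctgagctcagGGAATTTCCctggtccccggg
Cxcl3 (chr5:90786017-90786049, + strand, 72 bases before the start): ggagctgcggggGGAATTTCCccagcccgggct
Csf1 (chr3:107760603-107760635, - strand, 154 bases before the start): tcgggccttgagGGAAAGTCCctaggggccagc
The 3 chemokine promoters carry the same 9 letters, most of which the search itself fixes, and 4.26% of 32851 mouse promoters of the same length hold the motif. An AP-1 motif, searched as TGANTCA on both strands, was present in the promoters of *Il1a* and of *Il1rn* (at 1 of its 3 starts) and in 7.81% of all promoters. The TATA box TATAAA, searched on the strand of the gene, was present in those of *Cxcl3*, *Il1a* and *Il1b* and in 8.32% of all promoters. A match is a run of letters and not an observed binding site, and these tumors give no measurement of binding.

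**Figure D2:**
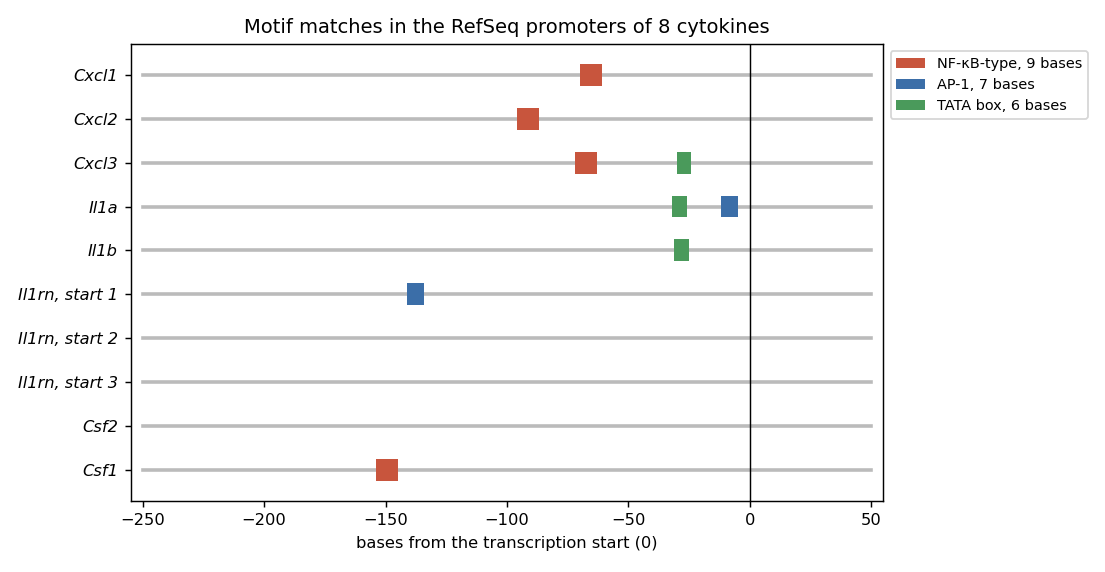
Positions of the NF-κB-type, AP-1 and TATA matches (coloured boxes, drawn to scale) along the RefSeq promoters of 8 cytokine genes, in bases from the transcription start at 0. The NF-κB-type matches of Cxcl1, Cxcl2 and Cxcl3 lie 70, 96 and 72 bases before the start and that of Csf1 lies 154 bases before it.

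*Cxcl2* (ENSMUSG00000058427), which encodes MIP-2, was at 25.71, 25.97 and 30.23 TPM in *Trp53fl/fl* tumors and at 92.25, 86.14 and 87.34 TPM in *VP* tumors. The groups stood far apart and were each narrow, since the lowest *VP* tumor was 2.85-fold above the highest *Trp53fl/fl* tumor while the SD was 9.3% of the mean in one genotype and 3.65% in the other. The means were 27.3 ± 2.54 TPM and 88.6 ± 3.24 TPM (SD, n = 3 each), a ratio of 3.24 and a log2 difference of 1.67 (SE 0.11). With centring on the 12 epithelial markers, whose summed TPM was higher in every *VP* tumor, the log2 difference was 1.48. *Cxcl1* (ENSMUSG00000029380), which encodes KC, a ligand of the same receptor, was at 49.79, 23.58 and 35.60 TPM in *Trp53fl/fl* tumors and at 114.75, 60.28 and 112.49 TPM in *VP* tumors. Every *VP* tumor was above every *Trp53fl/fl* tumor, but *VP* replicate 2 lay closer to *Trp53fl/fl* replicate 1 than to the other *VP* tumors. Its means were 36.3 ± 13.1 TPM and 95.8 ± 30.8 TPM (SD, n = 3 each), with a log2 difference of 1.38 (SE 0.33).

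*Cxcl3* (ENSMUSG00000029379), the copy nearest to *Cxcl2* in sequence, was at 17.75, 4.61 and 12.90 TPM in *Trp53fl/fl* tumors and at 20.68, 27.77 and 27.13 TPM in *VP* tumors. The groups did not overlap, though *VP* replicate 1 was just above *Trp53fl/fl* replicate 1. The log2 difference was 1.19 (SE 0.42), and without *Trp53fl/fl* replicate 2, the tumor with the lowest value, it was 0.69. *Cxcl2* and *Cxcl3* transcripts share an identical run of 110 bases, which is shorter than the read length given in the study's methods. Whether reads were split between these genes in the quantification was not tested. *Cxcl5* (ENSMUSG00000029371), which encodes the chemokine LIX and is made largely by epithelial cells, was at 122.40, 62.21 and 58.73 TPM in *Trp53fl/fl* tumors and at 81.94, 126.48 and 153.28 TPM in *VP* tumors. The genotypes overlapped, because *Trp53fl/fl* replicate 1 was above *VP* replicate 1. Its log2 difference was 0.60 (SE 0.33), and it was 0.94 without *Trp53fl/fl* replicate 1, 0.41 without *Trp53fl/fl* replicate 3, 0.41 without *VP* replicate 3 and 0.42 with centring on the epithelial markers.

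The makeup of the chemokine mRNA is described from the same TPM by which the genes were chosen, and nothing is read from it. The shares of the 4 chemokines depend on each other, since a lower share of *Cxcl5* leaves larger shares for the others. The summed level of *Cxcl1*, *Cxcl2*, *Cxcl3* and *Cxcl5* was 216, 116 and 137 TPM in *Trp53fl/fl* tumors and 309.6, 301 and 380.2 TPM in *VP* tumors, a ratio of means of 2.11. *Cxcl5* made up 56.8%, 53.5% and 42.7% of that sum in *Trp53fl/fl* tumors and 26.5%, 42.1% and 40.3% in *VP* tumors, where it was lower in every *VP* tumor. *Cxcl2* made up 11.9%, 22.3% and 22% against 29.8%, 28.6% and 23%, and was higher in every *VP* tumor by a margin of less than 1 percentage point. The shares of *Cxcl1* and *Cxcl3* overlapped. *Cxcl5* was the most abundant of the 4 chemokines in each *Trp53fl/fl* tumor, and in *VP* replicate 1 both *Cxcl1* and *Cxcl2* exceeded it. Relative to the mean of 12 epithelial markers, *Cxcl2* mRNA was at 2.9%, 2.86% and 3.31% in *Trp53fl/fl* tumors and at 9.17%, 7.96% and 8.02% in *VP* tumors. The neighbours *Ppbp* and *Pf4*, platelet chemokines encoded between *Cxcl5* and *Cxcl3*, did not share this separation. *Pf4* was at 53.33, 51.17 and 48.46 TPM and at 83.44, 44.07 and 57.66 TPM in the 2 genotypes (log2 difference 0.22, SE 0.22, limma adjusted p = 0.675), with *VP* values on both sides of the others. *Cxcl15*, next to *Cxcl1*, stayed below 1 TPM in all 6 tumors.

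**Figure D3:**
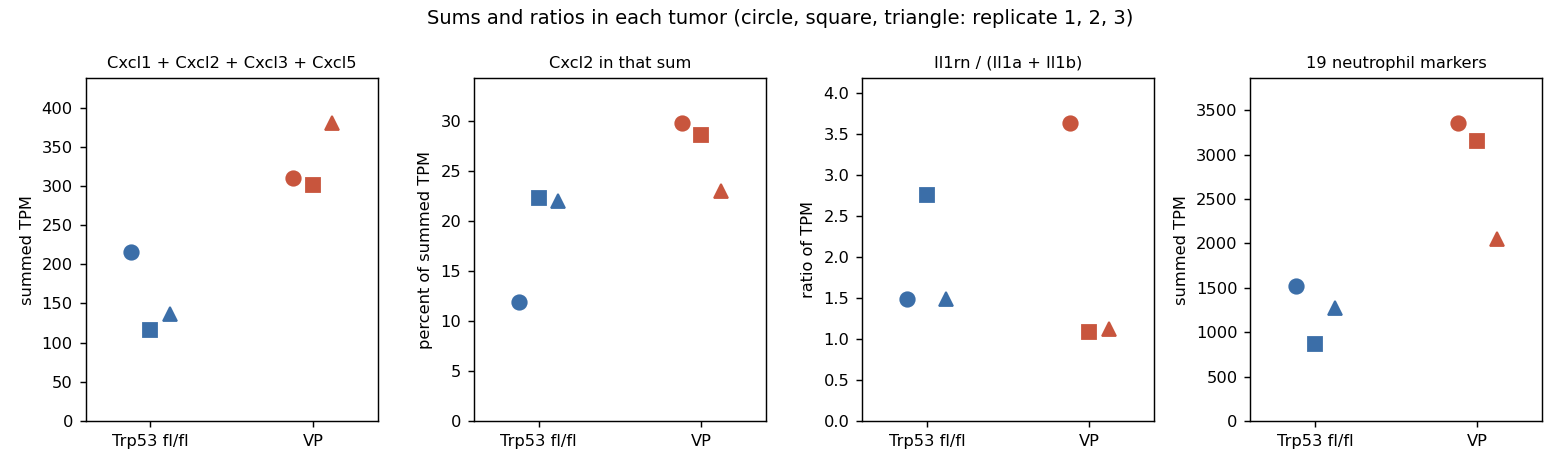
Summed TPM of the 4 chemokines, the percentage of that sum from Cxcl2, the ratio of Il1rn to Il1a plus Il1b TPM, and the summed TPM of 19 neutrophil markers (vertical axes from 0) in each tumor, with circle, square and triangle for replicates 1, 2 and 3. The chemokine sum and the neutrophil marker sum separate the genotypes, at 116 to 216 against 301 to 380.2 TPM and at 867 to 1525 against 2051 to 3355 TPM, and the antagonist ratio overlaps.

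Of the interleukin-1 genes, *Il1a* and *Il1rn* were higher in every *VP* tumor and *Il1b* was not. *Il1a* (ENSMUSG00000027399), whose product is often released by damaged epithelium, was at 7.26, 4.34 and 4.61 TPM in *Trp53fl/fl* tumors and at 8.85, 14.09 and 12.60 TPM in *VP* tumors, with a log2 difference of 1.01 (SE 0.24). *Il1b* (ENSMUSG00000027398), its neighbour on chromosome 2 and a product of activated myeloid cells, was at 51.43, 37.00 and 63.63 TPM in *Trp53fl/fl* tumors and at 39.13, 136.37 and 133.96 TPM in *VP* tumors. *VP* replicates 2 and 3 were above every *Trp53fl/fl* tumor, and *VP* replicate 1 was below 2 of them. The log2 difference of *Il1b* was 0.84 (SE 0.48), 1.43 without *VP* replicate 1 and 0.54 without *VP* replicate 2. *Il1rn* (ENSMUSG00000026981), the antagonist gene, was at 86.88, 113.76 and 101.78 TPM in *Trp53fl/fl* tumors and at 174.35, 162.60 and 163.49 TPM in *VP* tumors. Its genotypes did not overlap either, with the lowest *VP* tumor 1.43-fold above the highest *Trp53fl/fl* tumor, means of 101 ± 13.5 TPM and 167 ± 6.54 TPM (SD, n = 3 each) and a log2 difference of 0.73 (SE 0.12), or 0.55 with centring on the epithelial markers. The *VP* tumor with the most *Il1rn* mRNA was thus the one with the least *Il1b* mRNA. The ratio of *Il1rn* to the sum of *Il1a* and *Il1b* was 1.48, 2.75 and 1.49 in *Trp53fl/fl* tumors and 3.63, 1.08 and 1.12 in *VP* tumors. Its means, 1.91 ± 0.731 and 1.94 ± 1.46 (SD, n = 3 each), were alike, and in all 6 tumors the antagonist mRNA outnumbered that of both agonists together.

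Among the colony-stimulating factors, *Csf3* (ENSMUSG00000038067) was below 1 TPM in each *Trp53fl/fl* tumor, at 0.78, 0.06 and 0.39 TPM, and was at 18.44, 5.08 and 6.15 TPM in *VP* tumors. The groups did not overlap, and *VP* replicate 1 held more than the other *VP* tumors together. The means were 0.41 ± 0.36 TPM and 9.89 ± 7.42 TPM (SD, n = 3 each), and the log2 difference was 2.78 (SE 0.45). Since 1 TPM is added before the logarithm, this value depends on the pseudocount, and it was 4.36 with a pseudocount of 0.1. *Csf2* (ENSMUSG00000018916) was at 0.98, 0.51 and 0.14 TPM in *Trp53fl/fl* tumors and at 2.78, 1.44 and 1.92 TPM in *VP* tumors, with a log2 difference of 0.99 (SE 0.28), or 1.94 with a pseudocount of 0.1. It too was higher in every *VP* tumor, at low levels throughout. *Csf1* (ENSMUSG00000014599) was the exception of the 10 genes in direction. It was at 27.03, 19.71 and 30.39 TPM in *Trp53fl/fl* tumors and at 14.75, 22.31 and 19.40 TPM in *VP* tumors, with overlap and a log2 difference of -0.43 (SE 0.21), which was -0.27 without *VP* replicate 1. The ratio of *Csf3* to *Csf1* mRNA was 0.0289, 0.00304 and 0.0128 in *Trp53fl/fl* tumors and 1.25, 0.228 and 0.317 in *VP* tumors.

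**Figure D4:**
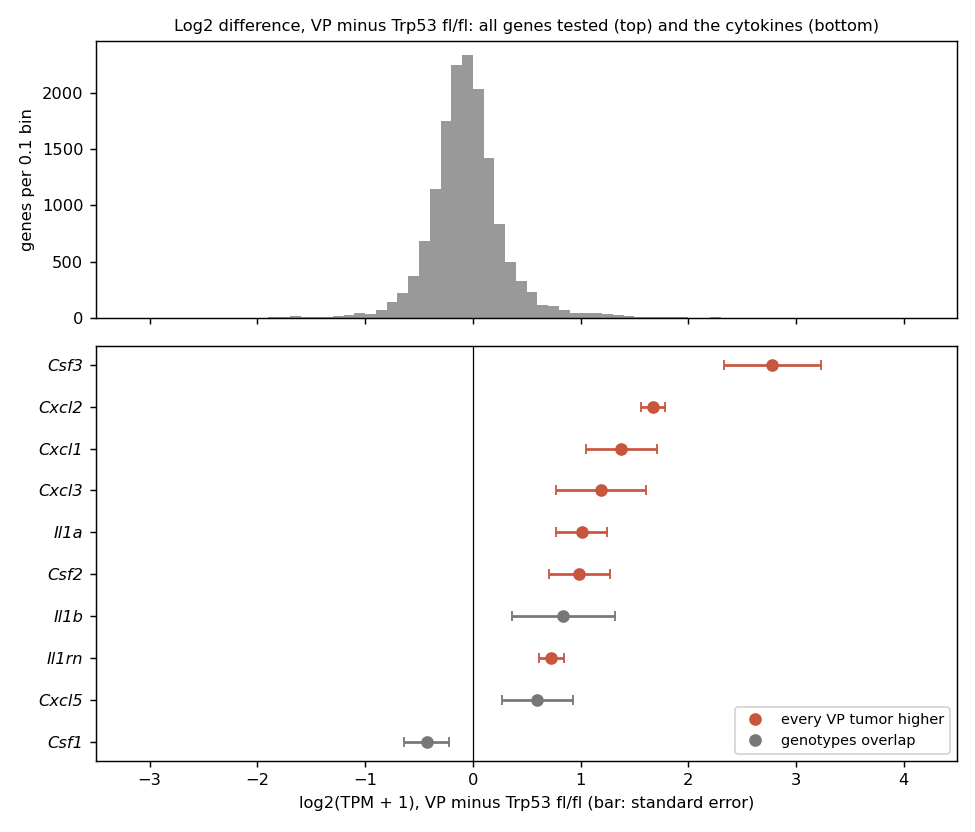
Number of genes per bin of the log2 difference, VP minus Trp53fl/fl, over the 15117 genes tested (top), and the log2 difference of each cytokine gene with its standard error as the bar (bottom). The cytokine genes run from 2.78 for Csf3 to -0.43 for Csf1, and the median of all genes is -0.07.

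Within a genotype the 10 genes did not rank the tumors alike. *VP* replicate 1 was the highest of all 6 tumors for *Cxcl1*, *Cxcl2*, *Il1rn*, *Csf3* and *Csf2*, and it was the lowest *VP* tumor for *Cxcl3*, *Cxcl5*, *Il1a*, *Il1b* and *Csf1*. The order of all 6 tumors was the same for *Cxcl3* and *Il1a*, and the same for *Cxcl1* and *Csf3*. Without *VP* replicate 1, 9 of the 10 genes were higher in every remaining *VP* tumor, where 10.3% of all genes were. Without *Trp53fl/fl* replicate 1, the count was 8 of 10 and the share of all genes 8.09%. By level, *Il1rn* came first and *Cxcl5*, *Il1b*, *Cxcl1* and *Cxcl2* followed in the same order in both genotypes. In *Trp53fl/fl* tumors the means of these 5 genes ran from 101 down to 27.3 TPM and each gene overlapped the next. In *VP* tumors *Il1rn* stood clear of *Cxcl5*, and *Cxcl2* stood clear of the next gene, *Cxcl3*, at 25.2 ± 3.92 TPM (SD, n = 3). *Csf3* was the lowest of the 10 genes in *Trp53fl/fl* tumors and came before *Csf2* in *VP* tumors, with no overlap between the latter.

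The pattern of *Cxcl2* over the 6 tumors was compared with that of 11444 genes with a mean of at least 5 TPM, by the root mean square difference of centred log2(TPM + 1) values. Among the 8 nearest genes were *Tmem254a* (0.162), *Tlcd2* (0.195), *Cldn8* (0.268), *2610528A11Rik* (0.282), *Ccl20* (0.287), *Ccl2* (0.294) and *Osm* (0.298). *Tmem254a*, the nearest, was at 74.52, 76.97 and 99.69 TPM and at 278.22, 323.31 and 327.45 TPM in the 2 genotypes. None of the other cytokine genes described here was among the 8. The nearest of them was *Cxcl1*, in place 37 at 0.444, followed by *Il1a* in place 53 at 0.460 and *Il1rn* in place 72 at 0.484. *Cxcl3*, its close copy, was in place 214, *Il1b* in place 1623 and *Csf1* in place 10259.

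AU-rich elements were frequent in several of these transcripts, and most so in those of *Cxcl2* and *Csf2*. In the 3′ UTRs of GENCODE M21 transcripts (GRCm38), the pentamer ATTTA, the core of these elements, was counted with overlaps on the strand of the transcript. *Cxcl2* held 11 pentamers in 734 bases, *Csf2* 9 in 317, *Cxcl1* 7 in 592, *Csf3* 6 in 669, *Cxcl3* 5 in 645, *Cxcl5* 5 in 1111, *Il1b* 4 in 459, *Csf1* 4 in 2111 and *Il1a* 3 in 1101. *Il1rn* held 0 in 1306 bases. Among genes with a 3′ UTR of 80% to 125% of the same length, at least 96.3% had fewer pentamers than each of *Cxcl1*, *Cxcl2*, *Cxcl3*, *Il1b*, *Csf3* and *Csf2*, while the share was 86.3% for *Cxcl5*, 63.3% for *Il1a* and 49.3% for *Csf1*. The longer element TTATTTATT was found in *Cxcl1*, *Cxcl2*, *Cxcl3* and *Csf2*, and in 6.11% of 11015 genes whose 3′ UTRs were as long as those of the 10 genes. The lines that follow show, for these 4 genes, the 30 bases with the most pentamers, read in the direction of transcription, with the pentamers in capitals.
Cxcl1 (chr5:90892602-90892631, + strand, from base 79 after the stop codon): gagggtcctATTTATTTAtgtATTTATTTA
Cxcl2 (chr5:90905327-90905356, + strand, from base 123): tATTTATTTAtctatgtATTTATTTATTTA
Cxcl3 (chr5:90787629-90787658, + strand, from base 181): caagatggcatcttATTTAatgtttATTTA
Csf2 (chr11:54247329-54247358, - strand, from base 230): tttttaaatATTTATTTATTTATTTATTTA

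Factors that destroy or protect such mRNAs were a list of 10 measured genes, of which 0 passed the adjustment over all genes in either direction with limma, 2 were higher and 1 lower at an unadjusted p under 0.05, and the median log2 difference was -0.10. Over all genes tested, 4.51% were higher and 8.0% lower at an unadjusted p under 0.05. *Hnrnpd*, the most abundant of them, which encodes the AU-rich element binding protein Auf1, had a log2 difference of -0.18 (SE 0.17, limma adjusted p = 0.67). *Zfp36*, *Zc3h12a* and *Rc3h1*, the 3 genes under an unadjusted p of 0.05, were named after their values were seen and encode tristetraprolin, Regnase-1 and Roquin-1, which promote the decay of cytokine mRNA. *Zfp36* was at 27.65, 27.36 and 38.89 TPM in *Trp53fl/fl* tumors and at 52.88, 45.81 and 36.57 TPM in *VP* tumors (log2 difference 0.52, SE 0.19, limma adjusted p = 0.358). *Zc3h12a* was at 44.09, 31.56 and 43.32 TPM against 56.39, 55.49 and 73.78 TPM, without overlap (log2 difference 0.63, SE 0.18, limma adjusted p = 0.299). *Rc3h1* was lower in every *VP* tumor, at 12.42, 17.97 and 10.89 TPM against 9.10, 8.41 and 9.55 TPM (log2 difference -0.53, SE 0.19, limma adjusted p = 0.349), and its difference was -0.34 without *Trp53fl/fl* replicate 2.

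The receptors of these cytokines showed no gene past the adjustment. Of 11 receptor genes 10 were tested, 0 passed with limma, and the median log2 difference was 0.10. At an unadjusted p under 0.05, 2 were higher and 0 lower, where 4.51% and 8.0% of all genes were. *Csf1r*, *Csf2ra*, *Il1r1* and *Csf2rb*, the most abundant receptors, had log2 differences of -0.08, -0.19, -0.01 and 0.12, with limma adjusted p-values of 0.903, 0.614, 0.99 and 0.829. The sign for *Il1r1* turned positive with quantile normalization and with median-of-ratios rescaling, and that for *Csf2rb* turned negative with centring on the epithelial markers. *Il1r1* in particular was level, at 15.78, 14.89 and 15.31 TPM in *Trp53fl/fl* tumors and at 17.55, 14.06 and 14.39 TPM in *VP* tumors. The following receptors were named after their values were seen. *Cxcr2*, the receptor of the 4 chemokines on neutrophils, was at 3.27, 3.52 and 4.17 TPM in *Trp53fl/fl* tumors and at 7.72, 7.03 and 5.43 TPM in *VP* tumors, without overlap (log2 difference 0.72, SE 0.18, limma adjusted p = 0.269). *Ackr1*, a receptor on venules that carries chemokines across the vessel wall, was at 4.23, 5.09 and 4.59 TPM against 8.30, 9.19 and 6.98 TPM (log2 difference 0.70, SE 0.16, limma adjusted p = 0.244). *Il1r2*, the decoy receptor that binds interleukin-1 without a signal, was at 6.06, 6.42 and 7.22 TPM against 24.35, 9.01 and 8.32 TPM, so that its log2 difference of 0.82 (SE 0.37, limma adjusted p = 0.416) rested largely on *VP* replicate 1 and was 0.36 without it. *Csf3r*, the receptor of the product of *Csf3*, overlapped between the genotypes, at 7.47, 8.24 and 11.08 TPM against 5.95, 14.72 and 9.09 TPM (log2 difference 0.07, SE 0.30, limma adjusted p = 0.933), and its sign turned with centring on the epithelial markers.

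Other chemokines were tested in the same fit. Of the 11 other CXC chemokine genes 8 were tested, 0 passed the limma adjustment, and the median log2 difference was 0.23. At an unadjusted p under 0.05, 1 gene, *Cxcl10*, was higher, where 4.51% of all genes were. *Cxcl14* and *Cxcl16*, 2 of the most abundant ones, had log2 differences of 0.24 (SE 0.15, limma adjusted p = 0.514) and 0.32 (SE 0.17, limma adjusted p = 0.474). Of the 19 CC chemokine genes 18 were tested, 0 passed the limma adjustment, 6 were higher and 0 lower at an unadjusted p under 0.05, where 4.51% and 8.0% of all genes were, and the median was 0.31. *Ccl6*, the most abundant, had a log2 difference of -0.28 (SE 0.21, limma adjusted p = 0.594), which was -0.07 without *VP* replicate 1. *Ccl9*, *Ccl7* and *Ccl8* followed in abundance, with log2 differences of 0.39, 1.10 and 0.15 and limma adjusted p-values of 0.513, 0.393 and 0.907. *VP* replicate 2 decided much of these values, which were 0.15, 0.59 and -0.16 without it, and *Ccl8* also turned negative with centring on the epithelial markers. Without *VP* replicate 1, *Ccl8* was at 0.73. *Ccl2* and *Ccl20*, both among the 8 genes with the pattern nearest to *Cxcl2*, attract monocytes and Ccr6-bearing lymphocytes. *Ccl2* was at 11.74, 8.54 and 16.40 TPM in *Trp53fl/fl* tumors and at 34.02, 53.13 and 35.62 TPM in *VP* tumors (log2 difference 1.68, SE 0.26). *Ccl20* was at 4.70, 8.53 and 7.11 TPM against 18.35, 17.07 and 24.56 TPM (log2 difference 1.45, SE 0.23). Both were higher in every *VP* tumor, and since they were named for their likeness to *Cxcl2*, no p is given for either.

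Genes upstream and downstream of the interleukin-1 receptor were tested as 3 further lists. Of the other interleukin-1 family ligands 3 were tested, 0 passed the limma adjustment and 0 had an unadjusted p under 0.05, and *Il18*, *Il33* and *Il1f9*, which encodes interleukin-36γ, had log2 differences of 0.10 (SE 0.15, limma adjusted p = 0.802), -0.26 (SE 0.18, limma adjusted p = 0.561) and 0.54 (SE 0.34, limma adjusted p = 0.525). The value for *Il1f9* was 0.22 without *VP* replicate 2. All 15 genes of interleukin-1 signal transduction were tested and 0 passed with limma, with a median of -0.13. At an unadjusted p under 0.05, 1 was higher and 1 lower, where 4.51% and 8.0% of all genes were. These 2 genes were *Myd88*, the adaptor, at 30.80, 28.39 and 30.33 TPM against 36.78, 45.04 and 41.45 TPM (log2 difference 0.44, SE 0.12, limma adjusted p = 0.278), and *Map3k7*, the kinase Tak1, with a log2 difference of -0.39 (SE 0.13, limma adjusted p = 0.325). *Irak1*, the most abundant gene of this list, had a log2 difference of -0.13 (SE 0.10, limma adjusted p = 0.614). Of the 17 NF-κB subunits and feedback targets, all tested, 0 passed with limma, 4 were higher and 0 lower at an unadjusted p under 0.05, where 4.51% and 8.0% of all genes were, 14 had a positive difference, as had 5930 of the 15117 genes tested, and the median was 0.25. The 4 genes were *Nfkbia*, *Nfkbiz*, *Tnfaip3* and *Tnf*, the first 3 of which encode regulators of NF-κB that it induces itself. *Nfkbia*, which encodes the inhibitor IκBα, was at 100.58, 87.80 and 108.08 TPM against 130.63, 122.13 and 164.79 TPM (log2 difference 0.48, SE 0.15, limma adjusted p = 0.317). *Tnf* was at 9.01, 8.18 and 16.75 TPM against 19.63, 17.92 and 23.55 TPM (log2 difference 0.85, SE 0.26, limma adjusted p = 0.317). *Sod2*, the most abundant gene of the list, had a log2 difference of 0.25 (SE 0.12, limma adjusted p = 0.441). *Bcl3*, also abundant, overlapped, at 108.55, 72.21 and 104.88 TPM against 66.87, 98.93 and 154.02 TPM. The 3 genes with a negative difference were the NF-κB subunits *Nfkb1*, *Rela* and *Relb*, each with overlap.

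**Figure D5:**
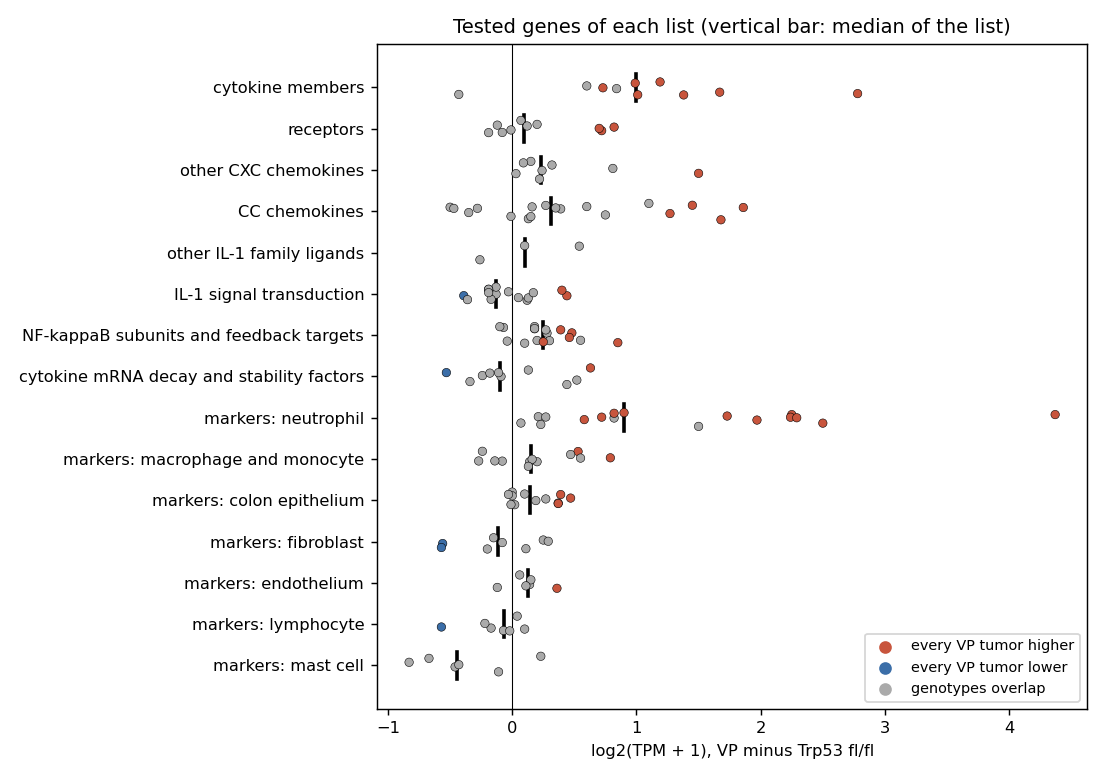
Log2 difference, VP minus Trp53fl/fl, of each tested gene in the cytokine group, the pathway lists and the cell type marker lists (1 row per list, vertical bar at the list's median, colour for overlap between the genotypes). The cytokine genes (median 1.00) and the neutrophil markers (median 0.90) lie furthest to the right, and the receptors and the interleukin-1 signal genes lie around 0 (medians 0.10 and -0.13).

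Neutrophils both respond to these cytokines and make some of them. Of 19 neutrophil markers 17 were tested, 1 was higher after the limma adjustment, 12 were higher and 0 lower at an unadjusted p under 0.05, 11 were higher in every *VP* tumor, and all 17 had a positive difference, with a median of 0.90, where over all genes 4.51% were higher and 8.0% lower at that p and 6.03% were higher in every *VP* tumor. *Ngp* and *Camp* passed the filter on low values through the *VP* tumors alone. Of the other 15 markers, 0 passed the limma adjustment, 10 were higher at an unadjusted p under 0.05 and 9 were higher in every *VP* tumor, with a median of 0.82. The summed level of all 19 markers, *Ngp* and *Camp* included, was 1525, 867 and 1276 TPM in *Trp53fl/fl* tumors and 3355, 3149 and 2051 TPM in *VP* tumors. The gene that passed was *Ngp*, a granule protein gene, at 0.81, 0.21 and 0.62 TPM against 48.44, 18.17 and 32.08 TPM (log2 difference 4.37, SE 0.35, limma adjusted p = 0.00804). Since *Ngp* entered the fit through the *VP* tumors alone, nothing is read from this p. With no filter on low values, its limma adjusted p was 0.0795. *S100a9*, the most abundant marker, was at 347.92, 148.25 and 263.04 TPM against 877.32, 1006.69 and 567.99 TPM (log2 difference 1.73, SE 0.34, limma adjusted p = 0.182), and *Lcn2*, which inflamed colon epithelium also makes, had a log2 difference of 0.82 (limma adjusted p = 0.395), which was 0.42 without *Trp53fl/fl* replicate 2. *Camp* was listed at 0 in all *Trp53fl/fl* tumors, and *Elane* and *Mpo*, genes of granulocyte precursors, stayed below 1 TPM in all 6 tumors. *Cxcr2*, *Csf3r* and *Il1r2* stand in this list as well as among the receptors.

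Marker lists of other cell types had smaller median differences between the genotypes. Of all genes tested, 4.51% were higher and 8.0% lower at an unadjusted p under 0.05. The summed level of 12 macrophage and monocyte markers was 1305 to 1408 TPM in *Trp53fl/fl* tumors and 1167 to 1610.1 TPM in *VP* tumors, with 0 genes past the limma adjustment, 3 higher and 0 lower at an unadjusted p under 0.05 and a median log2 difference of 0.15. The 12 colon epithelium markers summed to 10628 to 10954 TPM and to 12069 to 13063 TPM, with 0 past the adjustment, 3 higher and 0 lower at an unadjusted p under 0.05 and a median log2 difference of 0.15. Medians were -0.11 for 8 fibroblast markers, 0.13 for 6 endothelial markers, -0.07 for 7 tested lymphocyte markers and -0.45 for 6 mast cell markers, with 0 past the adjustment in each. At an unadjusted p under 0.05, 2 fibroblast markers were lower, 1 endothelial marker was higher, and 0 of the lymphocyte and mast cell markers differed. *VP* replicate 1, the tumor highest for *Csf3* and lowest among *VP* tumors for *Il1b*, had the highest neutrophil marker sum and the lowest macrophage marker sum of the 6 tumors. The neutrophil sums of *VP* replicates 1 and 2 were close, at 3355 and 3149 TPM. Their order leaned on a single gene, *Cd177*, at 590.42 and 313.20 TPM. That macrophage sum leaned on its most abundant gene, *Lyz2*, at 514.88 TPM in *VP* replicate 1 and at 721.92 to 787.27 TPM in the other tumors. *C1qa*, the next in abundance, was at 152.76 TPM in *VP* replicate 1 and at 148.42 to 156.06 TPM in *Trp53fl/fl* tumors. In the other *VP* tumors *C1qa* was at 174.96 and 197.25 TPM. As for *Lyz2*, *VP* replicate 1 was the lowest of the 6 tumors for *Adgre1* (6.69 TPM) and *Ccr2* (1.37 TPM). It was the highest for *Mrc1* (14.01 TPM), and neither for the other markers of the list. Whether the low macrophage sum goes with fewer macrophages was not tested. The part of cell composition in the differences of the 10 cytokine genes was not tested.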

How the data were processed

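The authors extracted RNA from tumor tissue with TRIzol and deposited TPM per gene for each of the 6 tumors. Their processing notes name HISAT2, StringTie and the mouse build mm9, without versions. From these TPM, log2(TPM + 1) was fitted by genotype with limma 3.58.1 in R 4.3.3 (empirical Bayes with trend, Benjamini-Hochberg adjustment), for genes that reached 1 TPM in 3 or more tumors, and the procedure was tested on simulated data. With 3 tumors against 3, an exact two-sided permutation test of a single value cannot go below p = 0.1, and none was used. TPM allow no count test and no counting error. Members, pathway lists and marker lists were chosen with earlier results of these data known. Genes named from a list were those past an adjusted p of 0.05, otherwise up to 4 with the highest mean TPM, 2 for marker lists, and other genes were named after their values were seen. These are *Cxcr2*, *Ackr1*, *Il1r2*, *Csf3r*, *Cxcl10*, *Ppbp*, *Cxcl15*, *Myd88*, *Map3k7*, *Nfkbiz*, *Tnfaip3*, *Tnf*, *Rela*, *Relb*, *Zfp36*, *Zc3h12a*, *Rc3h1*, *Camp*, *Elane*, *Mpo*, *Cd177*, *Adgre1*, *Ccr2* and *Mrc1*. Promoters and gene order came from RefSeq (GRCm38.p6) and coding sequences and 3′ UTRs from GENCODE M21 (GRCm38), which holds 52093 of the 54167 gene IDs, as the transcript of each gene with the longest coding sequence, aligned with Biopython 1.88. No coordinates were moved between builds. Of the 8 genes nearest to *Cxcl2* in pattern, 1 is not reported here. Alternatives were a pseudocount of 0.1, no filter on low values, a filter on a mean of 5 TPM, quantile normalization, median-of-ratios rescaling, centring on 12 epithelial markers, empirical Bayes with no trend, the replicate number as a block, and each tumor left out in turn.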

Additional observations from a re-analysis of the deposited data

How the results depend on the processing

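The number of genes with an adjusted p under 0.05, 25 as reported, was 7 with no filter on low values, 44 with centring on 12 epithelial markers, and 6 (without *VP* replicate 2) to 28 (without *VP* replicate 3) with a tumor left out. The causes were not tested. The pathway lists held 0 such genes in each of the 14 alternatives. With a tumor left out, the median log2 difference of the 10 genes lay between 0.86 and 1.21. In these fits 7 to 9 of them were higher in every *VP* tumor, where 8.09% to 12.3% of all genes were. With a mean of at least 5 TPM that count was 6, since *Csf2* was then not tested, and the share of all genes was 6.3%. *Trp53* kept its direction in each alternative and its adjusted p exceeded 0.05 in 6 of them, and that of *Ngp* did so in 2.

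Labels number the tumors 1 to 3 in both genotypes. The deviations of same-numbered tumors from their genotype means correlated at 0.019, -0.052 and 0.018, and those of tumors with different numbers at -0.108 to 0.095. The labels do not say whether the numbers pair the tumors, and correlations over all genes cannot decide it. With the replicate number as a block, 10 genes had an adjusted p under 0.05, 7 higher and 3 lower. The block changed the SE of *Cxcl1* from 0.33 to 0.14 and that of *Cxcl5* from 0.33 to 0.38.

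Among the genes named in the text with a log2 difference, directions turned for 7, each at most 0.22 in size as reported. *Il1r1* was at 0.07 with median-of-ratios rescaling and at 0.08 with quantile normalization. With centring, *Csf3r* was at -0.11, *Csf2rb* at -0.06, *Il18* at -0.08 and *Ccl8* at -0.03. With a tumor left out, *Il1r1* ran from -0.10 to 0.05, *Csf3r* from -0.23 to 0.36, *Csf1r* from -0.29 to 0.05, *Csf2rb* from -0.03 to 0.31, *Pf4* from -0.01 to 0.44, *Il18* from -0.02 to 0.23 and *Ccl8* from -0.16 to 0.73. TPM below 1, as for *Csf3* and *Csf2* in *Trp53fl/fl* tumors, leave the size of a fold uncertain, and without read numbers no limit could be set on them.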

Other observations

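*Osm*, which encodes the cytokine oncostatin M, belonged to no list and came out among the 8 genes nearest to *Cxcl2* in pattern. It was at 3.25, 2.08 and 3.41 TPM in *Trp53fl/fl* tumors and at 6.92, 7.78 and 9.38 TPM in *VP* tumors, with no overlap. *Cldn8*, a claudin of tight junctions, was at 13.52, 14.24 and 16.32 TPM against 63.51, 44.74 and 31.71 TPM. Both were higher in every *VP* tumor, and since they were chosen by likeness to *Cxcl2*, no test is given.

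*Cxcl2* mRNA relative to that of *S100a8*, 1 of the 19 neutrophil markers, did not separate the genotypes. The log2 differences of the tested markers ran from 0.07 for *Csf3r* to 4.37 for *Ngp*, so such a ratio depends on the marker chosen. Ratios to the other markers were not taken. The ratio of *Cxcl2* to *S100a8* was 13.1%, 34.4% and 24.3% in *Trp53fl/fl* tumors and 15%, 14.7% and 27.6% in *VP* tumors. For *Il1b* the ratio to *S100a8* was 26.2%, 49% and 51.2% against 6.37%, 23.3% and 42.4%, also with overlap.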
